A study of Mus musculus with 16 samples.

Results

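RUNX2 and C/EBPβ binding were compared in undifferentiated MC3T3-E1 cells, a mouse line of osteoblast precursors. The sites were the peaks of sequenced chromatin immunoprecipitations (ChIP-seq) in the lists for RUNX2 and for C/EBPβ, taken on the mm9 build without the mitochondrial genome. There were 12661 RUNX2 peaks and 15622 C/EBPβ peaks, which together made 28283 of the 314862 regions in the 14 deposited lists. A peak was called shared when it overlapped a peak of the other factor by at least 1 bp. By this rule 3944 RUNX2 peaks were shared, 8717 were RUNX2-only and 11662 C/EBPβ peaks were C/EBPβ-only. The shared sites were described by their RUNX2 peak unless stated, and 3960 C/EBPβ peaks were their partners. All cells were at passages 5 to 12 and had received ethanol vehicle for 3 h. Lists for H4K5Ac, H3K9Ac, H3K4me1, H3K4me3 and H3K36me3 in the same state served to describe the chromatin, and lists of differentiated cells were not used here.

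RUNX2 is a runt-domain transcription factor that binds DNA with its partner CBFβ and is needed for osteoblasts to form. C/EBPβ is a basic leucine zipper factor that binds as a dimer, with other C/EBP proteins or with ATF factors such as ATF4. It is known as an activator of inflammatory and acute phase genes, as a driver of early fat cell differentiation, and as a co-activator with RUNX2 of the osteocalcin gene in osteoblasts. H3K4me1 marks enhancers and the flanks of promoters, H3K4me3 marks active promoters, H3K9Ac and H4K5Ac mark active chromatin, and H3K36me3 lies over transcribed gene bodies.

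Each factor had 1 list, merged by the authors from biological replicates that cannot be seen separately, and read depth is unknown. No test between conditions was therefore possible. Intervals in brackets cover 95% counting error over sites, which are not replicates, and a peak's absence can reflect the authors' calling threshold or a weaker immunoprecipitation as well as absence of the factor. Osteoblast identity was checked on the marks: of 10 osteoblast marker genes, 7 had H3K4me3 at a transcription start site (TSS), against 34.2% of all genes. That count was 1 of 10 for chondrocyte markers and 0 of 8 for each of the adipocyte, muscle, haematopoietic, endothelial and neural lists. Alpl, Spp1 and Msx2 were the osteoblast markers without H3K4me3. Of the 26 matrix and mineralisation genes described below, only 11 had it, and Ibsp, Bglap and Dmp1 did not. H3K36me3 covered at least 50% of the gene at 8 of 10 osteoblast, 3 of 10 chondrocyte and 1 of 8 endothelial markers. That was so at 9098 of all 22368 genes.

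The sequences below show shared sites in which both recognition motifs occurred, so that the spacing of the motifs can be seen beside the spacing of the peaks. Capitals mark matches to TGTGGT, the core of the RUNX motif, and to TTGCNNAA, the C/EBP palindrome with open middle letters, on either strand. All runs are the plus strand of NCBIM37, the assembly behind mm9. Each is the whole RUNX2 peak, or the whole C/EBPβ peak at C/EBPβ-only sites. The sites were taken from those nearest to 28 genes of bone, fat and inflammation and to the 10 genes with the most shared sites. Among the ones that could be printed, 8 shared sites at 7 genes held both motifs, and 1 site for each of these genes is shown. They were an intronic site of Vgll4, a co-factor of TEAD proteins (chr6:114840855-114841055), a site 67753 bp upstream of the kinase gene Map4k3 (chr17:81195086-81195286) and a site 27029 bp upstream of Spp1, which encodes the bone matrix protein osteopontin (chr5:104837008-104837208). The others were 44132 bp upstream of Pparg, the master regulator of fat cells (chr6:115267007-115267207), 52236 bp upstream of the transporter gene Slc44a3 (chr3:121287398-121287598), in an intron of the focal adhesion gene Tns3 (chr11:8339140-8339340) and 75193 bp upstream of Tnfsf11 (chr14:78782943-78783143), which encodes the osteoclast-inducing cytokine RANKL. The distance between the RUNX2 and C/EBPβ peak centres ranged from 10 bp at Vgll4 to 81 bp at Tnfsf11.
Vgll4 shared site: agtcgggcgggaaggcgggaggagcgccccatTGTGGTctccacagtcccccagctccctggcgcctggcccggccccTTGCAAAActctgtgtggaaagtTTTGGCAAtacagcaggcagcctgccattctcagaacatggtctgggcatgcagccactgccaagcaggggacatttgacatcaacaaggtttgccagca
Map4k3 shared site: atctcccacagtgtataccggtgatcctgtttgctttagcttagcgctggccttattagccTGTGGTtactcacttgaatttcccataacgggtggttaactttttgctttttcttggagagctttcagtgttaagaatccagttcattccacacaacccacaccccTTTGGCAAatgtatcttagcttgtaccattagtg
Spp1 shared site: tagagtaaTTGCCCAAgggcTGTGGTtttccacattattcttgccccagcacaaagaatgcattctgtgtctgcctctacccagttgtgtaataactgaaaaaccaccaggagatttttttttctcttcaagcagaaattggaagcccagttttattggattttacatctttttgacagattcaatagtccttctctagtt
Pparg shared site: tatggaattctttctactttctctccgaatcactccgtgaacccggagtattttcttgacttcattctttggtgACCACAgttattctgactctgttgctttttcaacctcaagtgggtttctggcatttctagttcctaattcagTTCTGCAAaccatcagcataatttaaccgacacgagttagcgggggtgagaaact
Slc44a3 shared site: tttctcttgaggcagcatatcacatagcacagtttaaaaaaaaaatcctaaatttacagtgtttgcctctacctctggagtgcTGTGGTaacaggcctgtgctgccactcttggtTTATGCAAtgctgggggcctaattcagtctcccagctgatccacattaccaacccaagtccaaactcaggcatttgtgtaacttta
Tns3 shared site: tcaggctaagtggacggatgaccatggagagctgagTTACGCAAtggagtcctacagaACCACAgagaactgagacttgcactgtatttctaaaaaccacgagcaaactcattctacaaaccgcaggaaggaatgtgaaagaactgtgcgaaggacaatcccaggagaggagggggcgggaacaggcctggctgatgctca
Tnfsf11 shared site: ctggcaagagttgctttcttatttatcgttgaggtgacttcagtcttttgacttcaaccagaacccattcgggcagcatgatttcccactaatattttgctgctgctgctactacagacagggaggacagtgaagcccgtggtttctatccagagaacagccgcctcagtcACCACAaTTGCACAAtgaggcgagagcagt

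In the Spp1 site 4 bp separated the C/EBP match from the RUNX match, in the Tnfsf11 site 1 bp, in the Tns3 site 14 bp, and in the Map4k3 site 100 bp. The motif pairs thus kept no single spacing. Promoter sites of 1 factor alone are shown for contrast. RUNX2-only sites lay 122 bp upstream of the Spp1 TSS (chr5:104863915-104864115) and 252 bp upstream of Ccl2, a chemokine gene (chr11:81848721-81848921). C/EBPβ-only sites lay 147 bp upstream of Ptgs2, the inducible cyclooxygenase gene (chr1:151947007-151947207), and 182 bp upstream of Il6, an interleukin gene (chr5:30339419-30339619). The Spp1 and Ccl2 sites each held 1 RUNX match and no C/EBP match, the Ptgs2 and Il6 sites each held 1 C/EBP match and no RUNX match.
Spp1 RUNX2-only promoter site: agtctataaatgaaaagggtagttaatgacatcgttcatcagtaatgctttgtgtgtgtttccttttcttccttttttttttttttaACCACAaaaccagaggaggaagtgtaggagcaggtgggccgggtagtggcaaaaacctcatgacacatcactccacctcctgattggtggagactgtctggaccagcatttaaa
Ccl2 RUNX2-only promoter site: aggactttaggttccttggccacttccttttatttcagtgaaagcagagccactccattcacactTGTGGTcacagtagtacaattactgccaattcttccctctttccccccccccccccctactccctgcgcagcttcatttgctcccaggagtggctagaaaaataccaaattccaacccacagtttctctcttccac
Ptgs2 C/EBPβ-only promoter site: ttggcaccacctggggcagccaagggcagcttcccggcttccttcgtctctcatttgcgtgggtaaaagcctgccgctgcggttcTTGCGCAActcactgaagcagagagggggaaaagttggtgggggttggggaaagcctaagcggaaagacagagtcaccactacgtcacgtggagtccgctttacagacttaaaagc
Il6 C/EBPβ-only promoter site: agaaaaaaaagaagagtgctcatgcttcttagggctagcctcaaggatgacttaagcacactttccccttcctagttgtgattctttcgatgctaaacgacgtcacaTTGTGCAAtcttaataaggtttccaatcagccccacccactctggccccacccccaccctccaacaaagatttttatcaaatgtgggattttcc

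Most peaks of each factor stood apart from the other factor, and those that met it did so closely. Shared sites were 31.2% (30.3 to 32.0) of the RUNX2 list and 25.3% (24.7 to 26.0) of the C/EBPβ list. RUNX2-only sites made up the other 68.8% of the RUNX2 list and C/EBPβ-only sites the other 74.7% of the C/EBPβ list. The shared peaks formed 3984 pairs. Of the shared RUNX2 peaks, 3904 met 1 C/EBPβ peak and 40 met 2. Of the shared C/EBPβ peaks, 24 met 2 RUNX2 peaks. Only 0.243% of genome bases lay near enough to a C/EBPβ peak for a RUNX2 peak placed there to overlap it, and 0.197% lay so near to a RUNX2 peak. Within the bases under H4K5Ac or H3K4me1 these shares were 1.38% and 1.17%.

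The centres of shared pairs were a median of 61 bp apart (59 to 63), with quartiles at 29 and 105 bp. RUNX2-only peaks lay a median of 18146 bp from the nearest C/EBPβ centre, and C/EBPβ-only peaks a median of 22995 bp from the nearest RUNX2 centre. Pairs were many times denser at short than at long distances. Per 10 bp of distance, there were 327 RUNX2 peaks at 0 to 10 bp from a C/EBPβ centre, 328 at 26 to 50 bp, 70.8 between 150 and 200 bp and 34.4 between 200 and 300 bp. Between 500 and 1000 bp the count was down to 10 per 10 bp. A C/EBPβ centre lay within 100 bp of 22.7% of RUNX2 centres, within 1 kb of 40.7% and within 20 kb of 67.0%. In the other direction a RUNX2 centre lay within 100 bp of 18.4% of C/EBPβ centres, within 1 kb of 34.0% and within 20 kb of 60.5%. All peaks have the same width, and the overlap rule itself ends at a centre distance of 200 bp, and the decline with distance began well inside that limit.

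**Figure D1:**
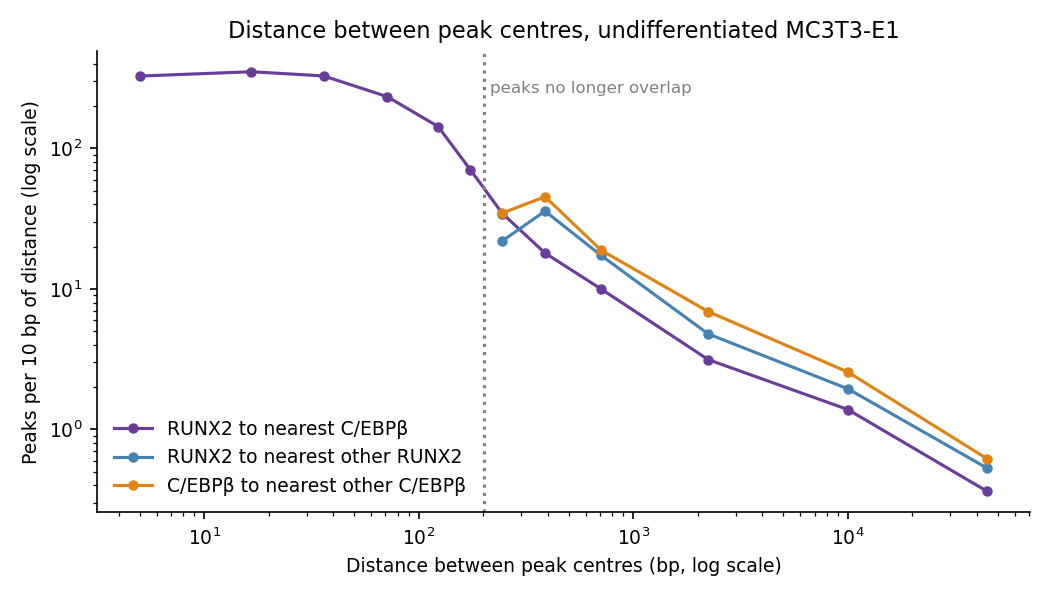
Peaks per 10 bp of distance (log scale) against distance in bp (log scale) for each RUNX2 centre to the nearest C/EBPβ centre, each RUNX2 centre to the nearest other RUNX2 centre and each C/EBPβ centre to the nearest other C/EBPβ centre. Points stand for distance bins and the dotted line marks where peaks no longer overlap, below which peaks of 1 list never lie. For RUNX2 peaks the counts stay between 327 and 351 per 10 bp out to 50 bp and are down to 10 between 500 and 1000 bp.

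RUNX2-only sites were the class richest in promoters. Within 1 kb of a TSS lay 14.9% of shared sites, 30.9% of RUNX2-only sites and 14.7% of C/EBPβ-only sites, against 3.10% of genome bases. RUNX2-only sites exceeded C/EBPβ-only sites by 16.2 percentage points (15.0 to 17.4). Shared minus RUNX2-only was -16.0 points (-17.4 to -14.5), and shared sites differed from C/EBPβ-only sites by 0.228 points (-1.03 to 1.54), an interval that spans 0. Intergenic sites were 50.7% of the shared, 36.1% of the RUNX2-only and 47.9% of the C/EBPβ-only class, and introns held 33.4%, 31.3% and 35.4% of the same classes. Median distance to the nearest TSS was 25306 bp for shared sites, 9749 bp for RUNX2-only sites and 21390 bp for C/EBPβ-only sites. Sites within 100 bp of a TSS made up 6.82% of shared, 14.4% of RUNX2-only and 4.70% of C/EBPβ-only sites. At the far end, 20.3% of shared, 11.6% of RUNX2-only and 17.9% of C/EBPβ-only sites were over 100 kb from any TSS.

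At promoters all classes lay mostly upstream of the TSS. The centre was upstream at 74.5% (70.8 to 78.0) of shared, 67.6% (65.8 to 69.3) of RUNX2-only and 64.4% (62.1 to 66.7) of C/EBPβ-only promoter sites, with median positions of -78, -59 and -59 bp. The quartiles were -162 and 2 bp for shared, -154 and 30 bp for RUNX2-only, and -286 and 193 bp for C/EBPβ-only sites, so the last class was the most widely spread around the TSS. Base composition differed in the same places. Of promoter sites, 64.3% of shared, 70.9% of RUNX2-only and 37.5% of C/EBPβ-only windows had at least 50% G or C bases and an observed to expected CpG ratio of at least 0.6, which are features of CpG islands. Median GC content over the promoter windows was 59.2%, 62.2% and 52.7% in the same order of classes. Over all sites it was 48.3% for shared, 51.7% for RUNX2-only and 45.8% for C/EBPβ-only.

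Shared sites had the highest share in acetylated and H3K4me1-marked chromatin. H4K5Ac regions held 99.2% of shared, 96.2% of RUNX2-only and 86.7% of C/EBPβ-only sites, although the regions covered only enough of the genome to reach 13.6% of bases. For H3K4me1 the shares were 99.1%, 95.6% and 90.6%, with 13.8% of bases reached. Of the C/EBPβ-only sites, 772, or 6.62% (6.18 to 7.09), lay outside H4K5Ac, H3K9Ac, H3K4me1 and H3K4me3 regions alike. Such sites numbered only 5 of the shared class (0.127%) and 136 of the RUNX2-only class (1.56%). A further 6.57% of C/EBPβ-only sites had H3K4me1 but neither H4K5Ac nor H3K4me3, against 0.634% of shared and 2.17% of RUNX2-only sites.

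The classes differed in their share of promoters, so sites over 1 kb from a TSS, called distal here, were also read on their own. Among distal sites H3K9Ac marked 49.2% of shared, 36.4% of RUNX2-only and 25.1% of C/EBPβ-only sites. Shared exceeded RUNX2-only by 12.8 points (10.7 to 14.9) and C/EBPβ-only by 24.1 points (22.2 to 26.0), and RUNX2-only exceeded C/EBPβ-only by 11.3 points (9.82 to 12.8). Over all sites the shares were 56.0% for shared, 54.5% for RUNX2-only and 34.0% for C/EBPβ-only. The shared and RUNX2-only classes then differed by 1.48 points (-0.393 to 3.34). With only the H3K9Ac regions above the median score kept, that difference over all sites turned to -6.75 points. Distal H3K4me3 was low in every class, at 6.71% of shared, 8.10% of RUNX2-only and 6.68% of C/EBPβ-only sites. H3K36me3 was at 24.5% of shared, 23.7% of RUNX2-only and 24.9% of C/EBPβ-only sites, with 13.9% of bases reached. The shared class exceeded RUNX2-only sites there by 0.804 points (-0.794 to 2.43), an interval that spans 0. Promoter sites carried H3K4me3 at 69.4% of shared, 73.2% of RUNX2-only and 58.2% of C/EBPβ-only sites.

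**Figure D2:**
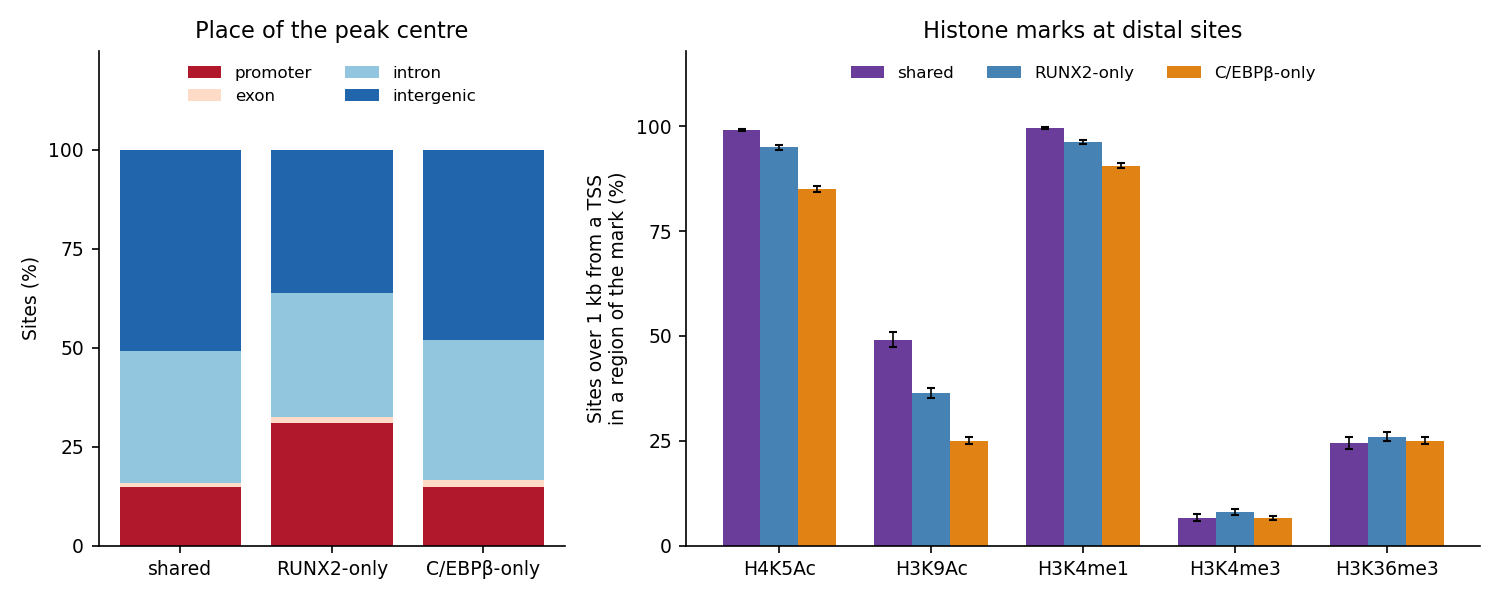
Left, the percentage of shared, RUNX2-only and C/EBPβ-only sites with their centre in promoters (within 1 kb of a TSS), exons, introns and intergenic sequence. Right, the percentage of distal sites in a region of each histone mark. Bars start at 0 and error bars are exact 95% intervals of counting error. The RUNX2-only class has the highest promoter share, 30.9%, and the shared class the highest distal H3K9Ac share, 49.2%.

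H3K4me1 with both acetylations and no H3K4me3, a pattern usually described for active enhancers, was found at 40.4% of shared, 26.6% of RUNX2-only and 20.4% of C/EBPβ-only sites. H3K4me1 with H4K5Ac alone was the largest combination outside H3K4me3 regions in each class, at 42.5% of shared, 40.3% of RUNX2-only and 50.4% of C/EBPβ-only sites.

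Read in the other direction, the share of peaks with a partner differed by place for RUNX2 and by acetylation for both factors. At promoters 17.9% (16.6 to 19.3) of RUNX2 peaks had a C/EBPβ partner, against 38.8% (37.5 to 40.2) of intergenic RUNX2 peaks. C/EBPβ peaks were shared at similar rates in promoters, 25.3% (23.6 to 27.2), introns, 24.3% (23.2 to 25.5), and intergenic sequence, 26.4% (25.4 to 27.4). The few peaks in exons were shared at 21.1% (15.4 to 27.7) of 185 for RUNX2 and 17.1% (12.8 to 22.1) of 275 for C/EBPβ. Among distal RUNX2 peaks 42.9% in H3K9Ac regions and 30.8% outside them were shared, while over all places the values were 31.7% and 30.4%. For distal C/EBPβ peaks the shares were 39.9% in H3K9Ac regions and 18.8% outside them. Outside H4K5Ac regions only 31 of 359 RUNX2 peaks, or 8.64%, and 32 of 1581 C/EBPβ peaks, or 2.02%, were shared. Within distal H3K9Ac regions, 5.02% of bases would give a RUNX2 peak an overlap with C/EBPβ. There 4.65% of bases would give a C/EBPβ peak an overlap with RUNX2. The shared percentages were 8.56 and 8.58 times those base shares. At promoters they were 15.6 and 15.4 times the base shares there, and in H4K5Ac regions 19.8 times for each factor.

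**Figure D3:**
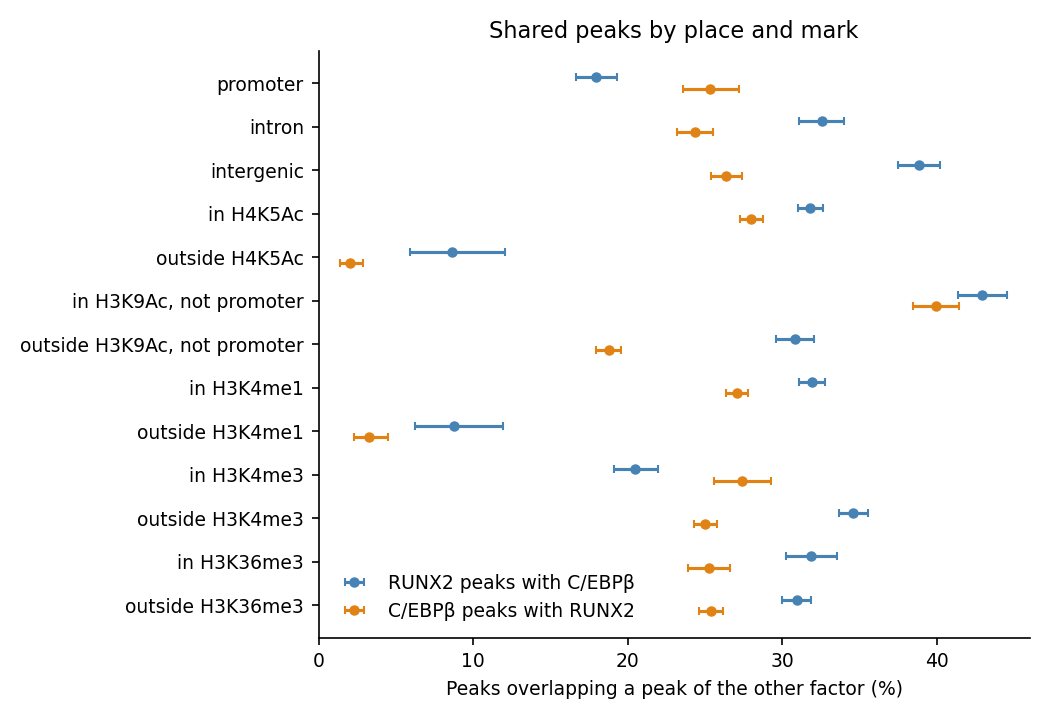
Percentage of RUNX2 peaks overlapping a C/EBPβ peak, and of C/EBPβ peaks overlapping a RUNX2 peak, by place and by histone mark; points are shares and lines exact 95% intervals of counting error. RUNX2 peaks range from 8.64% outside H4K5Ac to 42.9% in distal H3K9Ac regions, and C/EBPβ peaks from 2.02% to 39.9% in the same strata.

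The factors also met at the scale of whole H4K5Ac regions without touching. Of 41590 H4K5Ac regions, 3042 held a shared site, 1381 held peaks of both factors with none shared, 4082 held RUNX2-only sites alone, 4661 held C/EBPβ-only sites alone and 28424 held neither. Regions with a shared site had a median width of 17379 bp and a median percentile of 91.3 by the deposited score of the list. Regions with both factors but no shared site were much the same, at 16509 bp and a percentile of 90.7. Regions with RUNX2 alone had a median width of 6878 bp and a percentile of 74.1. Regions with C/EBPβ alone had 6708 bp and 67.1, and regions with neither 3516 bp and 37.1. H3K9Ac regions did not follow this order of scores. Their median percentile was 48.6 with a shared site and 69.8 with both factors but none shared. It was 59.8 with RUNX2 alone, 48.9 with C/EBPβ alone and 45.7 with neither. Wider regions have more room for peaks, and the part of width in these counts was not tested. Of the sites of 1 factor alone that lay in H4K5Ac, 44.6% of RUNX2-only and 46.5% of C/EBPβ-only sites had a peak of the other factor elsewhere in the same region.

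The recognition motifs of the factors followed the classes only in part. The RUNX core TGTGGT, on either strand within 100 bp of the centre, occurred at 54.2% of shared, 50.4% of RUNX2-only and 18.9% of C/EBPβ-only sites. Windows 1 kb to either side held it at 15.0%, 14.9% and 15.0%, and 13.9% of all genome windows of the same length held it. RUNX2-only exceeded C/EBPβ-only by 31.5 points (30.2 to 32.7). Shared sites exceeded RUNX2-only sites by 3.79 points (1.91 to 5.66) over all places, but the distal values were 59.2% for shared and 62.4% for RUNX2-only, a difference of -3.25 points (-5.32 to -1.19). The excess over all places therefore did not hold away from promoters. At promoters the core was rarer, at 25.8% of shared, 23.5% of RUNX2-only and 10.4% of C/EBPβ-only sites. Shared minus RUNX2-only was 2.30 points (-1.45 to 6.30) at promoters, an interval with limits of opposite sign. The excess was thus not clear at promoters either. Promoter sites made up 14.9% of shared and 30.9% of RUNX2-only sites.

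The C/EBP motif TTGCNNAA occurred at 17.2% of shared, 5.12% of RUNX2-only and 46.8% of C/EBPβ-only sites, against 9.40% of genome windows. The flanks held it at 8.43%, 8.20% and 8.69%. RUNX2-only minus C/EBPβ-only was -41.7 points (-42.7 to -40.7), and RUNX2-only sites also lay below their own flanks. The rule of the class removes every RUNX2 peak that meets a C/EBPβ peak, and its part in this low share was not tested. Because shared windows are centred on the RUNX2 peak, the shared sites were also read around their C/EBPβ centre. There 24.3% had the C/EBP motif, and the difference from C/EBPβ-only sites was still -22.5 points (-24.1 to -20.9). The RUNX core was then at 45.4% of shared sites, 26.5 points (24.8 to 28.2) above C/EBPβ-only sites. Shared sites thus held the RUNX core about as often as RUNX2 sites without C/EBPβ. They held the C/EBP motif less often than C/EBPβ sites without RUNX2.

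The same asymmetry stood in the position and number of matches. The nearest RUNX core lay a median of 30.5 bp from the centre in shared, 30.5 bp in RUNX2-only and 42.5 bp in C/EBPβ-only sites. For the C/EBP motif the medians were 24.5 bp in shared sites around their C/EBPβ centre, 47.5 bp in RUNX2-only and 16.5 bp in C/EBPβ-only sites. At least 2 RUNX cores occurred at 13.6% of shared, 14.0% of RUNX2-only and 1.83% of C/EBPβ-only sites. At least 2 C/EBP motifs occurred at 1.94% of shared sites around their C/EBPβ centre, 0.138% of RUNX2-only and 5.27% of C/EBPβ-only sites. A stretch that matches on both strands was counted once. The exact palindrome TTGCGCAA was present in 0.0161% of genome windows. It was found at 31 shared sites (0.783%) around their C/EBPβ centre and at 21 (0.532%) around their RUNX2 centre. C/EBPβ-only sites held it at 431, or 3.70% of them. RUNX2-only sites held it at 0 of 8717, with an exact upper bound of 0.0423% that lies above the genome share. The letters of TTGCGCAA lie within TTGCNNAA, so the sites with it are also counted above.

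Motif shares in shared pairs were also read by the distance between the centres. Around the RUNX2 centre, the C/EBP motif stood in 21.5% (18.9 to 24.4) of shared sites with centres 0 to 25 bp apart. The share was 22.1% at 26 to 50 bp and 17.9% at 51 to 100 bp. Beyond 100 bp, where the C/EBPβ centre lies at the edge of the window or outside it, the C/EBP motif stood in 9.07% (7.41 to 10.9). Around the C/EBPβ centre it stood in 22.2% (19.5 to 25.1), 22.7%, 23.8% and 27.8% (25.2 to 30.6) of the same bins, so the lower share at wide distances was not seen there. The RUNX core around the RUNX2 centre was at 56.3%, 54.0%, 55.7% and 50.9% of sites in these bins, and around the C/EBPβ centre at 56.6%, 52.4%, 47.5% and 28.8%. Both motifs occurred in 9.71% of shared, 3.03% of RUNX2-only and 8.71% of C/EBPβ-only sites, and neither occurred in 38.3%, 47.5% and 43.0% of these classes. Where both occurred, the median gap between them was 39 bp in shared, 40.5 bp in RUNX2-only and 38 bp in C/EBPβ-only sites. The C/EBP match lay 3′ of the RUNX core in 55.6% (50.5 to 60.7) of the 383 shared sites with both, in 53.8% of 264 RUNX2-only and in 50.8% of 1016 C/EBPβ-only sites. Read around the C/EBPβ centre, 441 shared sites had both, and the share was 53.5% (48.7 to 58.2), an interval that spans 50%. A gap of 0 to 9 bp was seen at 62 of the 383 shared sites, 10 to 19 bp at 50 and 40 to 49 bp at 44, and the wider range of 50 to 74 bp at 70.

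**Figure D4:**
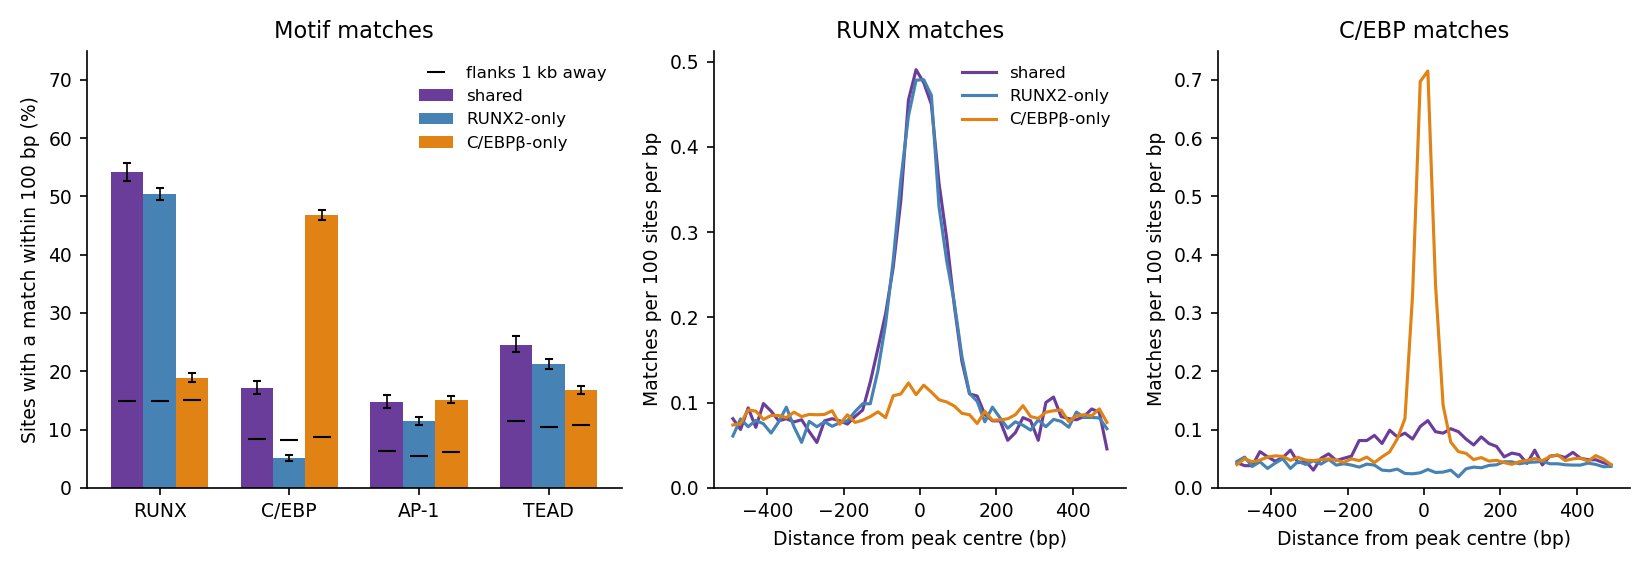
Left, percentage of shared, RUNX2-only and C/EBPβ-only sites with a match to each motif within 100 bp of the centre, with exact 95% intervals of counting error and the share in flanking windows. Middle and right, matches per 100 sites per bp against distance from the peak centre in bp, for the RUNX core and the C/EBP motif. The RUNX core is at 54.2% of shared and 50.4% of RUNX2-only sites, and the C/EBP motif at 17.2% of shared and 46.8% of C/EBPβ-only sites. Shared sites are read here around their RUNX2 centre. Around their C/EBPβ centre 24.3% hold the C/EBP motif.

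Motifs of other factors differed by place and by class. The composite C/EBP and ATF site, TGATGCAA on either strand, shares letters with TTGCNNAA although the same letters cannot match both, and was in 0.623% of genome windows. It occurred at 2.16% of shared, 0.0803% of RUNX2-only and 8.22% of C/EBPβ-only sites. Around their C/EBPβ centre 3.26% of shared sites held it. The AP-1 site TGANTCA, on either strand and in 5.96% of genome windows, occurred at 16.6% of shared, 14.6% of RUNX2-only and 16.6% of C/EBPβ-only distal sites. The TEAD site GGAATG, on either strand and in 10.9% of genome windows, was at 27.1% of shared, 25.7% of RUNX2-only and 17.7% of C/EBPβ-only distal sites. TEAD letters were thus more frequent in both RUNX2 classes, by 9.38 points (7.72 to 11.1) in shared and 7.97 points (6.64 to 9.31) in RUNX2-only over C/EBPβ-only distal sites. At promoters the ETS site CCGGAAG, on either strand and in 0.570% of genome windows, was at 15.4% of shared, 14.1% of RUNX2-only and 9.04% of C/EBPβ-only sites. The SP site GGGGCGG, on either strand and in 0.831% of genome windows, was at 22.2%, 26.3% and 13.8% of the same promoter classes. These letters are rich in G and C, like the promoter windows themselves, and the part of base composition was not tested. The 6-letter word most in excess over the flanks was the RUNX core in both RUNX2 classes, and in C/EBPβ-only sites it was ATTGCA, at 26.6% of sites and 7.41% of flanks.

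Each site was next credited to 1 gene, the owner of the closest TSS up to 100 kb away. Of 22368 genes, 9.94% had a shared site, 22.8% a RUNX2-only site and 24% a C/EBPβ-only site. Sites of either factor reached 38.3% of genes. RUNX2-only sites with no other class were found at 10.6% of genes, C/EBPβ-only sites with no other at 11% and sites of both factors with none shared at 6.66%. Genes with RUNX2 carried active promoter marks more often. H3K4me3 lay at a TSS of 59.1% of the 2243 genes with a shared site by either of its peaks. The share was 59.5% of genes with both factors but none shared. It was 58.9% of the 2367 genes with RUNX2-only sites and no other. For the 2466 genes with C/EBPβ-only sites and no other it was 43.2%. Genes with no site had H3K4me3 at 21.6%. H3K36me3 covered at least 50% of the gene at 63.2%, 63.6%, 67.4%, 51.4% and 28.0% of the same classes. Median gene length was 34.5 kb for genes with a shared site and 10.4 kb for genes with none. It was 20.3 kb with RUNX2-only sites and no other, and 25.2 kb with C/EBPβ-only sites and no other.

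Named genes of bone, fat and inflammation showed each of the patterns. Of 28 such genes, 14 had a shared site, 22 a RUNX2-only site and 22 a C/EBPβ-only site, against 9.94%, 22.8% and 24% of all genes. The sites numbered 30 shared, 73 RUNX2-only and 77 C/EBPβ-only. More RUNX2-only than C/EBPβ-only sites stood at 10 genes and fewer at 13, against 14.3% and 17.1% of all genes. These genes were picked for their known link to the factors, and their counts are a description.

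Regulators of the osteoblast lineage differed in their mix of classes. Runx2 itself had 0 shared, 4 RUNX2-only and 5 C/EBPβ-only sites. At both of its promoters a RUNX2 peak stood beside a C/EBPβ peak without overlapping it, with centres 231 bp apart near one start and 296 bp apart near the other. Sp7, which encodes osterix and acts after RUNX2, had 1 shared, 3 RUNX2-only and 0 C/EBPβ-only sites by the nearest start. Its shared site, chr15:102208337-102208537, lay 11152 bp upstream and next to RUNX2-only sites 10611 and 10271 bp upstream. Twist1, an inhibitor of RUNX2 activity, had 1 shared site only. Vdr, the vitamin D receptor gene, had 2 shared sites and 1 RUNX2-only site, and no C/EBPβ-only site, by the nearest start. One shared Vdr site was intronic, chr15:97717899-97718099, and the other lay 3871 bp upstream. Both held a RUNX core and no C/EBP motif. The lack of C/EBPβ-only sites at Sp7 and Vdr rested on the rule. Within 100 kb of the Sp7 start there were 3 shared, 4 RUNX2-only and 3 C/EBPβ-only sites, 6 of them credited to other genes. Within 100 kb of a Vdr start there were 3 shared, 5 RUNX2-only and 2 C/EBPβ-only sites, 7 of them credited to other genes.

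C/EBP genes were bound by RUNX2 as well. Cebpd had 0 shared, 4 RUNX2-only and 1 C/EBPβ-only site. RUNX2-only peaks lay 513 and 190 bp upstream of its start, in H3K4me3, and the nearest C/EBPβ centre was over 69 kb away from either, at 70133 and 69810 bp. Cebpa had a shared promoter site 171 bp upstream of its start, with centres 14 bp apart and neither motif, and 1 further site of each single class. Cebpb had no site of its own by the nearest-start rule. Its start lies 907 bp from a start of a Tmem189 transcript model. Within 100 kb of the Cebpb start there were 4 shared, 5 RUNX2-only and 4 C/EBPβ-only sites, all 13 of them credited to other genes and 9 to Tmem189. Pparg, in contrast, had 1 shared, 1 RUNX2-only and 6 C/EBPβ-only sites, and 5 of those 6 held the C/EBP motif.

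Matrix and mineralisation genes differed among themselves. Col1a2, the α2 chain of type I collagen, had 8 shared, 4 RUNX2-only and 7 C/EBPβ-only sites. Shared Col1a2 sites stood 47924, 47519 and 46972 bp upstream, with RUNX2-only sites between and beside them, and centres of the shared pairs there were 56, 14 and 43 bp apart. Its partner gene Col1a1 had 0 shared sites by the nearest start, with 7 RUNX2-only and 4 C/EBPβ-only sites, while 2 shared, 8 RUNX2-only and 4 C/EBPβ-only sites lay within 100 kb of its start. Alpl, the tissue-nonspecific alkaline phosphatase, had 0 shared, 6 RUNX2-only and 2 C/EBPβ-only sites by the same rule, and 1, 8 and 2 within 100 kb. All 6 RUNX2-only Alpl sites held a RUNX core, and their nearest C/EBPβ centres were 620 to 42237 bp away. Spp1 had 2 shared, 5 RUNX2-only and 6 C/EBPβ-only sites, spread from the promoter site printed above to 43972 bp upstream. Ibsp, bone sialoprotein, had 1 RUNX2-only site and no other by the nearest start. Within 100 kb of the Ibsp start there were 0 shared, 3 RUNX2-only and 6 C/EBPβ-only sites, and 8 of these 9 were credited to other genes, 5 of them to Spp1. Mmp13, collagenase-3, had 1 shared site 29581 bp upstream, with centres 12 bp apart, and 1 C/EBPβ-only site.

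By the nearest start, each of the inflammatory genes Ptgs2, Il6, Ccl2 and Saa3 had more C/EBPβ-only than RUNX2-only sites, and the osteoclast factor gene Tnfsf11 had fewer. For Saa3 this order rested on the rule, since 0 shared, 3 RUNX2-only and 1 C/EBPβ-only sites lay within 100 kb of its start, 3 of them credited to other genes. Ptgs2 had 4 C/EBPβ-only sites and no RUNX2 peak nearer than 227923 bp to any of them. At Il6 a C/EBPβ-only peak 182 bp upstream and a RUNX2-only peak 189 bp downstream flanked the start, with centres 371 bp apart. There were 0 shared, 1 RUNX2-only and 2 C/EBPβ-only sites at Il6 and the same numbers at Ccl2. Within 100 kb of the Ccl2 start there were 1 shared, 2 RUNX2-only and 6 C/EBPβ-only sites. Saa3, an acute phase gene, had 1 C/EBPβ-only site by the nearest start, and Lcn2 had none by this rule, while 1 shared, 5 RUNX2-only and 4 C/EBPβ-only sites lay within 100 kb of its start and were credited to nearer genes. Csf1, the macrophage growth factor, had 5 shared, 4 RUNX2-only and 6 C/EBPβ-only sites. Its shared promoter site lay 91 bp upstream with centres 17 bp apart. Tnfsf11 had 1 shared, 4 RUNX2-only and 1 C/EBPβ-only site, and the shared site and 3 RUNX2-only sites formed a cluster 74965 to 76522 bp upstream, all in H3K9Ac and H3K4me3 regions. Csf1 and Tnfsf11 thus had sites of all 3 classes.

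The remaining named genes had mixed sites. Ltbp1, a latent TGF-β binding protein, had 4 shared, 9 RUNX2-only and 7 C/EBPβ-only sites, the most RUNX2-only sites of the 28. Smad7, an inhibitor of TGF-β signalling, had 1, 4 and 6 sites in the same order of classes, and the cyclin gene Ccnd1 1, 4 and 3. Igfbp5, an IGF binding protein, had 1 shared, 1 RUNX2-only and 3 C/EBPβ-only sites. Fosl2 and Junb, which encode AP-1 factors, had no shared site by the nearest start, with 3 RUNX2-only and 3 C/EBPβ-only sites at Fosl2 and 2 and 1 at Junb. Within 100 kb of the Junb start there were 1 shared, 4 RUNX2-only and 6 C/EBPβ-only sites.

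**Figure D5:**
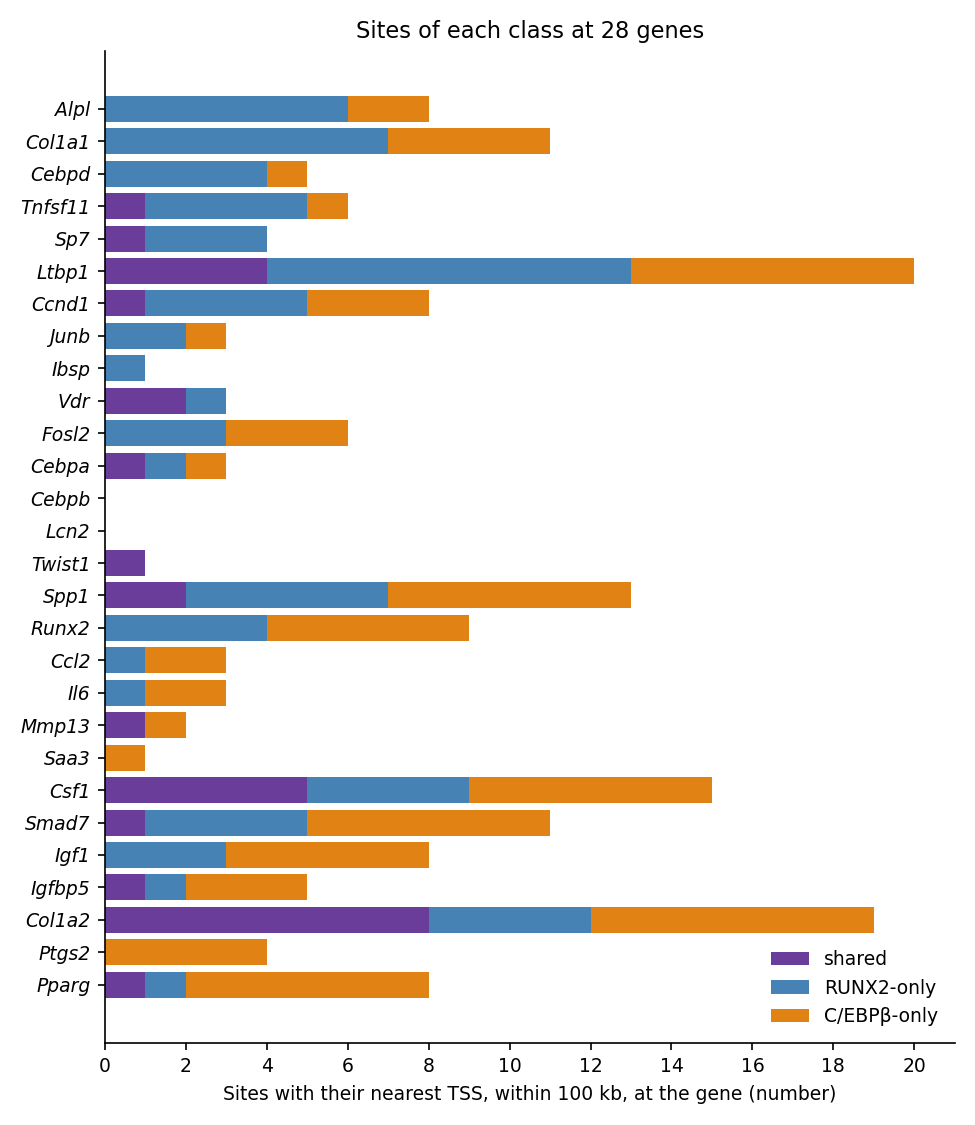
Number of shared, RUNX2-only and C/EBPβ-only sites, as stacked bars from 0, whose nearest TSS within 100 kb belongs to each of the named genes. Col1a2 has 8 shared sites, Alpl 6 RUNX2-only and 0 shared sites, and Ptgs2 4 C/EBPβ-only sites and no other.

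Gene lists were described by their counts. Of 26 inflammatory, chemokine and acute phase genes, 7 had a shared, 10 a RUNX2-only and 18 a C/EBPβ-only site, against 9.94%, 22.8% and 24% of all genes, with 17, 21 and 47 sites in all. More RUNX2-only than C/EBPβ-only sites stood at 2 of these genes and fewer at 15, against 14.3% and 17.1% of all genes. Tnfaip3, an inhibitor of NF-κB signalling, had 1 shared, 2 RUNX2-only and 5 C/EBPβ-only sites. Lif had 3, 6 and 4 and Socs3 4, 3 and 4 in the same order, so the list was not of 1 kind. Of 14 genes of the integrated stress response, which ATF4 serves, 4 had a shared, 5 a RUNX2-only and 10 a C/EBPβ-only site. Ddit4 and Trib3 each had 4 C/EBPβ-only sites and no other. Of 13 IGF genes, 5 had a shared, 6 a RUNX2-only and 10 a C/EBPβ-only site; Igf1 had 0, 3 and 5 sites. Of 15 adipocyte genes, the counts were 4 shared, 5 RUNX2-only and 8 C/EBPβ-only. The median over all genes was 0 sites of each class.

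The actin, RUNX and housekeeping lists held more RUNX2-only than C/EBPβ-only sites. Of 20 genes of the actin cytoskeleton and adhesion, 9 had a shared, 14 a RUNX2-only and 10 a C/EBPβ-only site, against 9.94%, 22.8% and 24% of all genes. They had 27, 56 and 33 sites, and RUNX2-only sites were the more numerous at 11 genes and the fewer at 4, against 14.3% and 17.1% of all genes. Mylk, myosin light chain kinase, had 5 shared, 10 RUNX2-only and 2 C/EBPβ-only sites, and Tpm1, a tropomyosin, had 2, 5 and 4. Of 12 genes of the RUNX family and its co-regulators, 6 had a shared, 11 a RUNX2-only and 8 a C/EBPβ-only site, with 9, 29 and 19 sites. Runx1 had 3 shared, 5 RUNX2-only and 6 C/EBPβ-only sites and Runx3 2, 5 and 1. Housekeeping genes had no shared site at any of 10, with RUNX2-only sites at 5 (13 sites) and C/EBPβ-only sites at 5 (7 sites). With 9.94% of all genes holding a shared site, 0 of 10 is near that background. Actb had 5 RUNX2-only and 2 C/EBPβ-only sites.

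Bone lists carried all 3 classes, as did the lists above other than housekeeping. Of 26 matrix and mineralisation genes, 14 had a shared, 17 a RUNX2-only and 18 a C/EBPβ-only site, against 9.94%, 22.8% and 24% of all genes, with 30, 47 and 72 sites. More RUNX2-only than C/EBPβ-only sites stood at 7 of these 26 genes and fewer at 15, against 14.3% and 17.1% of all genes. The osteocalcin genes Bglap and Bglap2 had no site of any class by the nearest start, and no H3K4me3 at a TSS. Col5a1 had 1 shared, 7 RUNX2-only and 9 C/EBPβ-only sites, and Dcn, which encodes decorin, 3, 0 and 9. Of 20 osteoblast transcription factor genes the counts were 10 shared, 13 RUNX2-only and 11 C/EBPβ-only. Prrx1 had 2 shared, 1 RUNX2-only and 10 C/EBPβ-only sites. Of 17 Wnt genes, 8, 13 and 14 had a site of each class, and of 27 BMP and TGF-β genes 10, 12 and 21. Of 16 matrix remodelling genes the counts were 3 shared, 9 RUNX2-only and 11 C/EBPβ-only, of 12 osteoclast coupling genes 4, 9 and 8, of 14 AP-1 and ATF genes 4, 8 and 11, of 11 C/EBP family genes 3, 7 and 7, and of 20 cell cycle genes 6, 10 and 8. C/EBPβ-only sites were the more numerous at 16 BMP and TGF-β, 9 Wnt and 9 matrix remodelling genes, and RUNX2-only sites at 3, 5 and 3. At cell cycle genes the numbers were 4 and 6, but in all these genes had 17 RUNX2-only and 25 C/EBPβ-only sites. Myc had 0 shared, 1 RUNX2-only and 9 C/EBPβ-only sites, and Ccnd2, a cyclin gene, 5 C/EBPβ-only sites and no other.

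Genes ranked over the whole genome showed the extremes. The most shared sites, 8 each, stood at Tns3, Col1a2 and Rbpj, the DNA-binding factor of Notch signalling. Rbpj also had 3 RUNX2-only and 6 C/EBPβ-only sites, and Tns3 had 9 and 12. The largest excess of RUNX2-only sites was at Bahcc1 and Gse1, each with 1 shared, 11 RUNX2-only and 2 C/EBPβ-only sites. Rara, a retinoic acid receptor gene, had 2, 9 and 1 sites, and the non-muscle myosin gene Myh9 1, 8 and 1. The largest excess of C/EBPβ-only sites was at Pappa2, a protease gene for IGF binding proteins, with 7 shared, 3 RUNX2-only and 14 C/EBPβ-only sites, and at Glis3 with 4, 2 and 13. Trpm3, an ion channel gene, had 10 C/EBPβ-only sites and no other, and Foxp1 3 shared, 2 RUNX2-only and 12 C/EBPβ-only sites. Tcf7l2, an effector of Wnt signalling, had 4, 6 and 15.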

How the data were processed

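Peak lists from ChIP-seq for 7 antibodies in undifferentiated cells were used. The submitters' processing notes name Bowtie, HOMER and the mm9 build. For versions and calling thresholds, the sources used here give none. A list merges the peaks of biological replicates, per the labels. The deposited score was 0 for every factor peak and was the authors' own value for mark regions, used only to rank regions within a list. Depth is unknown. H4K5Ac is the antibody label's name; the protocol text has H3K5Ac.

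Peaks were compared by overlap of at least 1 bp, with Python 3.11.15, numpy 2.4.6, scipy 1.17.1 and the GENCODE vM1 annotation of NCBIM37 (22368 genes and 70052 TSSs: 22367 protein-coding genes, and Cebpd, added by name). Sequences came from the NCBIM37 genome. Mitochondrial peaks were left out. The base share near a list is the share of known bases on which the centre of a 201 bp peak would overlap it. Motifs were searched within 100 bp of the centre on both strands and in windows 1 kb to either side. A site in an annotated UTR over more than 30 bases was not printed. Intervals are exact Clopper-Pearson for shares, Newcombe for differences and order-statistic for medians, at 95%, and cover counting error only. Scripts were tested on simulated data. The sites, named genes, gene lists and motifs were chosen with earlier results of these data known. Named were 28 genes of bone, fat and inflammation, up to 4 members per list with the most sites, and the 10 genes with the most shared sites, the largest excess of RUNX2-only sites and the largest excess of C/EBPβ-only sites.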

Additional observations from a re-analysis of the deposited data

Results flagged for a closer look

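The RUNX2 list held 13 peaks on the mitochondrial genome, which were left out of every comparison. The C/EBPβ list held 0 there, the H4K5Ac, H3K9Ac and H3K36me3 lists 2 each, the H3K4me1 list 1 and the H3K4me3 list 0. They drew attention as a signal outside the nuclear sites.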

How the results depend on the processing

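Of 67 values under 14 alternative settings, 40 stayed within the counting interval or 1.5 times the count of the main value, 27 moved and 0 turned round in a result called different from 0; 45 of 49 differences kept their sign with an interval that leaves out 0. An overlap of more than 100 bp gave 22.7% of RUNX2 and 18.4% of C/EBPβ peaks shared, and a median centre distance of 42 bp. RUNX2-only minus C/EBPβ-only differences were then 14.6 points for promoters, 18.9 for H3K9Ac, 12.6 for H3K4me3 and -39.7 for the C/EBP motif. Centres within 500 bp gave 36.7% and 30.6% shared, a median of 74 bp and a shared minus RUNX2-only H3K9Ac difference of 4.57 points. Merging nearby peaks of 1 list gave a median of 65 bp. Promoters of 5 kb gave a RUNX2-only minus C/EBPβ-only difference of 14.7 points, and promoters of 500 bp a shared minus RUNX2-only difference of -13.9. With mark regions above the median score the RUNX2-only minus C/EBPβ-only differences were 15.8 points for H3K9Ac and 8.14 for H3K4me3, and the shared minus RUNX2-only difference was -6.75 for H3K9Ac. Distal sites gave 11.3 (H3K9Ac), 1.43 (H3K4me3) and 42.0 (RUNX core) points for RUNX2-only minus C/EBPβ-only, and 12.8 for shared minus RUNX2-only H3K9Ac. For RUNX2-only minus C/EBPβ-only, motif windows reaching 50 bp to either side of the centre gave 24.8 (RUNX) and -39.0 (C/EBP) points. Windows reaching 200 bp to either side gave 27.1 and -40.3, and stricter letters 12.2 and -3.70. The causes of these moves were not tested. Genes with a shared site numbered 1484, with assignment within 20 kb, to 2487, with centres within 500 bp. No paired analysis was possible because each factor has 1 merged list. Missing depth and replicate values limit every comparison: a site of 1 factor alone may hold the other factor below its calling threshold.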

Other observations

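Chromosomes differed in the balance of the factors. There were 0.425 RUNX2 peaks per C/EBPβ peak on chromosome X, 0.503 on chromosome 14 and 0.522 on chromosome 13, against 1.20 on chromosome 17 and 1.11 on chromosome 8. The share of C/EBPβ peaks with a RUNX2 partner was 12.7% on chromosome X, 14.9% on chromosome 13 and 17.1% on chromosome 14, and reached 30.6% on chromosome 17. RUNX2 peaks were shared at 24.3% on chromosome 8 and 39.3% (35.8 to 42.9) on chromosome 3. On chromosome X 29.8% (20.8 to 40.1) of 94 RUNX2 peaks were shared. The share was 28.6% (23.8 to 33.7) on chromosome 13 and 34.0% (28.1 to 40.4) on chromosome 14, against 31.2% of the whole RUNX2 list.

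The peak names record how many peaks were merged into each. At least 3 were recorded for 5.17% (4.50 to 5.91) of shared sites, 6.08% (5.59 to 6.60) of RUNX2-only sites and 1.60% (1.38 to 1.85) of C/EBPβ-only sites. Shared sites read by their C/EBPβ peak had 5.58% (4.89 to 6.34), above the C/EBPβ-only sites.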
